A study of Mus musculus with 2 samples.

Results

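The 10 keratin genes *Krt5*, *Krt14*, *Krt15*, *Krt8*, *Krt18*, *Krt19*, *Krt6a*, *Krt17*, *Krt4* and *Krt13* were followed in mouse mandibular cells at embryonic day 9.5 (E9.5) and E12.0. They were taken by symbol, and all 10 were found among the 27514 genes that the count tables of both stages list. At E12.0, the mandibular epithelium of K14Cre;R26mT/mG embryos (6 from 1 litter, pooled) was freed with Dispase and TrypLE, and its GFP-positive cells were sorted. At E9.5, whole mandibular arches from 8 pooled embryos of 1 litter, labelled with the same genotype, were dissociated with TrypLE and not sorted, so mesenchyme and endoderm were included. In this genotype the Keratin 14 promoter drives Cre recombinase, and a cell in which Cre has acted switches its membrane label from tdTomato to GFP. The E12.0 cells were therefore selected through the promoter of *Krt14*, a member of this set. Each stage was a single 10x Genomics library that counts molecules by unique molecular identifiers (UMIs) at the 3′ ends of transcripts.

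Keratins build the intermediate filaments of epithelial cells as obligate pairs of 1 acidic type I and 1 basic type II protein. *Krt8* (type II) pairs with *Krt18* and *Krt19* (type I) in simple epithelia, whereas *Krt5* (type II) pairs with *Krt14* and *Krt15* (type I) in the basal layer of stratified epithelia. *Krt17* and *Krt6a* are known from periderm, skin appendages and stressed epidermis, and *Krt4* and *Krt13* form the pair of suprabasal cells in mature oral mucosa.

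In the GENCODE annotation of mouse build GRCm38, 5 of the 6 type I members lay within 143.7 kb of chromosome 11, all on the minus strand: *Krt13* (100117327-100121566), *Krt15* (100131758-100135928), *Krt19* (100140810-100148665), *Krt14* (100203162-100207548) and *Krt17* (100256217-100261029). The type II members lay on the minus strand of chromosome 15: *Krt6a* (101689910-101694307), *Krt5* (101707070-101712898), *Krt4* (101918535-101924735) and *Krt8* (101996698-102004482). *Krt18*, the remaining type I member, lay on the plus strand of chromosome 15 (102028180-102032027), 23.7 kb from its partner *Krt8*, and the 5 members of this chromosome lay within 342.1 kb.

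The promoter bases of *Krt5*, *Krt8* and *Krt18* are shown because these genes held the largest opposite differences between the stages below. They are the RefSeq promoter bases (build GRCm38.p6) upstream of every annotated transcript start, and RefSeq entries were matched by symbol for 5 of the 10 members. The capitals mark the only match, in these bases, to 4 motifs searched on both strands: TATAAA (the core promoter box bound by TBP), GCCNNNGGC (bound by AP-2 factors), GGGCGG (bound by Sp factors) and TGANTCA (bound by AP-1 factors). Of 32851 RefSeq promoters, 12.4%, 13.7%, 32.7% and 6.75% held these motifs, in that order, within the 250 bases before the start, a window longer than the ones shown for *Krt8* and *Krt18*. A match describes letters and not a bound site.
Krt5 (chr15:101712906-101713155, minus strand, 250 bases): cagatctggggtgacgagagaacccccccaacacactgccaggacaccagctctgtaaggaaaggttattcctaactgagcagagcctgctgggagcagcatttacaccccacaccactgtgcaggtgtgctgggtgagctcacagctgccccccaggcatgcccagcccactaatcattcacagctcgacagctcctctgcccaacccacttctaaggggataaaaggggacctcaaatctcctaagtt
Krt8 (chr15:102004483-102004592, minus strand, 110 bases): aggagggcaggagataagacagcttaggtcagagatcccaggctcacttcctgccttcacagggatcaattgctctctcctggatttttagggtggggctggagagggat
Krt18 (chr15:102027966-102028179, plus strand, 214 bases): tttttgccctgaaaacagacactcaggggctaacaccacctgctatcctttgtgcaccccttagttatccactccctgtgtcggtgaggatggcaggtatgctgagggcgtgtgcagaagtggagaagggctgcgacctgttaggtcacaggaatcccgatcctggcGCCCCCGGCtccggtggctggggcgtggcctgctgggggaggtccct

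The libraries differed in more than age. Cells with 200 to 5500 genes and at most 10% mitochondrial UMIs were kept, 12744 of 14293 barcodes at E9.5 and 11355 of 11663 at E12.0, with medians of 13460.5 and 6349 UMIs per cell. The median mitochondrial share was 1.54% at E9.5 and 5.50% at E12.0. The libraries shared 51 barcodes, 44 of them kept in both. Epithelial cells were taken as those with at least 1 UMI of the epithelial adhesion gene *Epcam*, 4816 at E9.5 and 9536 at E12.0. Levels are given as CPM: for each group of cells, the summed UMIs of a gene were scaled to 1000000 total UMIs, with an exact 95% Poisson interval. With 1 library per stage there was no test, and all intervals cover counting error only. Stage, sort, dissociation, depth and processing version moved together and cannot be told apart.

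The stages had nearly opposite keratin profiles. At E9.5 the simple keratins held most keratin UMIs, with 542 CPM of *Krt18*, 342 CPM of *Krt8* and 57.7 CPM of *Krt19*. At E12.0 the basal keratins did, with 664 CPM of *Krt14*, 484 CPM of *Krt5* and 309 CPM of *Krt15*. By the size used here, a CPM ratio of at least 2 with at least 5 CPM in either stage, 7 members could be compared: 4 were higher at E12.0 (*Krt5*, *Krt14*, *Krt15* and *Krt17*) and 3 were lower (*Krt8*, *Krt18* and *Krt19*). Over all 10517 genes compared in this way, 21.8% were at least 2-fold higher and 8.09% at least 2-fold lower. The median log2 ratio of E12.0 to E9.5 was 0.25 over all genes and 4.73 over the 7 members.

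Among the basal keratins, *Krt5* differed most. It had 22 UMIs in 22 of the 4816 epithelial cells at E9.5, a level of 0.331 CPM (0.208-0.501), against 32902 UMIs and 484 CPM (479-489) at E12.0. The log2 ratio was 10.51 (9.91-11.19). No E9.5 cell held more than 1 *Krt5* UMI, whereas a single E12.0 cell held up to 31. *Krt14* and *Krt15*, its type I partners, were already present at E9.5. *Krt14* had 11.8 CPM (10.98-12.6) at E9.5 and 664 CPM (658-670) at E12.0, a ratio of 56.3 (52.5-60.5). *Krt15* had 3.99 CPM (3.52-4.50) and 309 CPM (305-313), a ratio of 77.5 (68.6-87.8). At E9.5 the type I basal keratins thus far outnumbered their type II partner, with 35.6 *Krt14* UMIs for each *Krt5* UMI, and at E12.0 there were 1.37. Since the E12.0 cells were sorted through the *Krt14* promoter, part of the *Krt14* difference cannot be told apart from the sort. Genes were compared by UMIs, which count 3′ ends and are not scaled by transcript length.

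The simple keratins were lower at E12.0 to different extents. *Krt18* had 542 CPM (537-548) at E9.5 and 76.4 CPM (74.3-78.5) at E12.0, 7.10-fold lower (6.90-7.31). *Krt8* had 342 CPM (337-346) and 52.6 CPM (50.9-54.3), 6.50-fold lower (6.28-6.74). *Krt19*, which has no tail domain and can also pair with *Krt8*, had 57.7 CPM (55.9-59.6) and 16.8 CPM (15.8-17.8), 3.43-fold lower (3.21-3.67). All 3 remained countable at E12.0, where *Krt18* alone was found in 35.9% of the cells. Type I UMIs outnumbered type II UMIs at both stages, by 1.80 to 1 at E9.5 and 2.03 to 1 at E12.0.

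Of the remaining members, *Krt17* had 1.14 CPM (0.902-1.43) at E9.5 and 30.3 CPM (29.0-31.7) at E12.0, a ratio of 26.5 (21.1-33.8). *Krt6a* had no UMI in the 4816 E9.5 cells, of which 3 cells would make 0.0623%, and 220 UMIs in 113 E12.0 cells. Its level at E12.0, 3.24 CPM (2.82-3.69), was 71.7-fold the level that 3 counts over the E9.5 group would give. It stayed under 5 CPM at both stages and was not among the 7 compared. The mucosal pair was close to the detection limit. *Krt4* had 1 UMI at E9.5 and 5 at E12.0, and *Krt13* had 4 and 7. No expression can be read from these counts at this depth. *Krt6b*, a close copy of *Krt6a* whose reads could be shared with it, had no UMI at either stage.

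**Figure D1:**
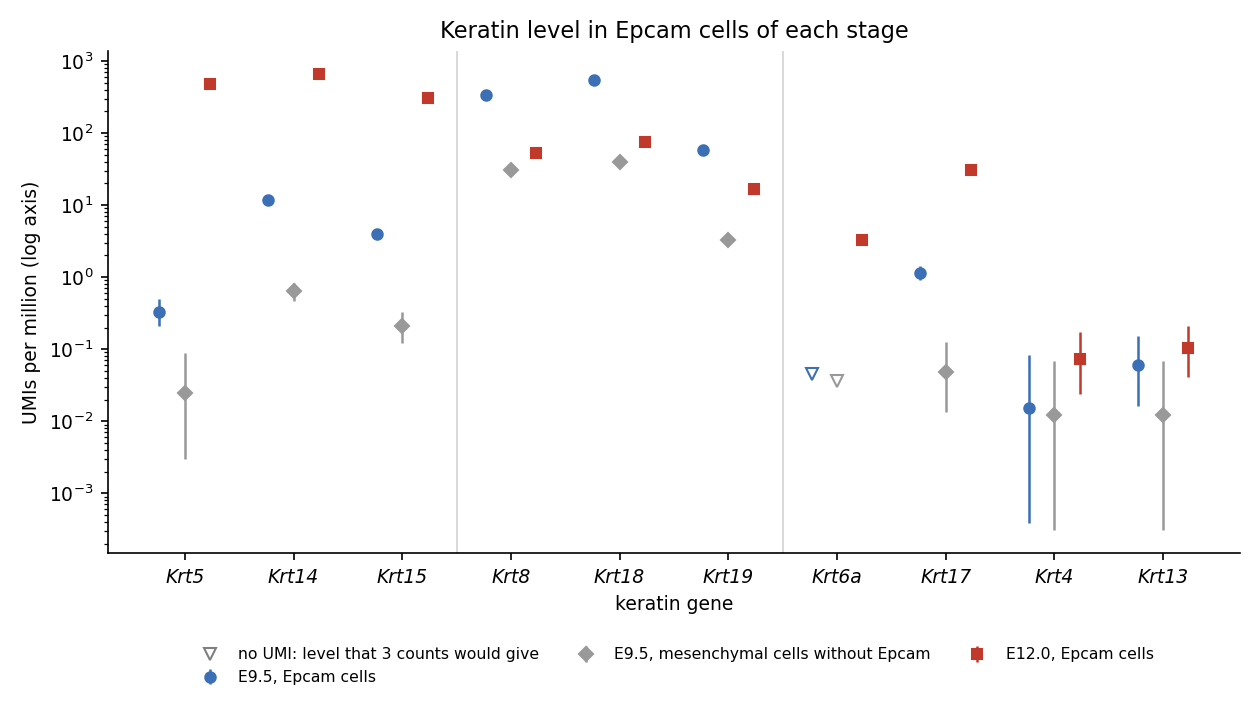
Level of each of the 10 keratins (CPM, log axis) in Epcam-positive cells of E9.5 and E12.0 and in E9.5 mesenchymal cells without Epcam UMIs; points are CPM of summed UMIs, bars the exact 95% Poisson intervals, and open triangles the level that 3 counts would give where no UMI was found. Krt5, Krt14 and Krt15 sit at 309 CPM or more at E12.0 and at 11.8 CPM or less at E9.5, whereas Krt8, Krt18 and Krt19 sit lower at E12.0.

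The share of cells with a UMI moved in the same directions. Because E9.5 cells were deeper, each cell was also thinned to 4000 UMIs, which left 4606 E9.5 and 8974 E12.0 epithelial cells. *Krt14* was found in 13.3% of cells at E9.5 and 86.6% at E12.0, or 4.78% and 80.2% after thinning. *Krt8* was found in 81.9% and 21.7%, or 62.7% and 14.8% after thinning. For *Krt18* the shares were 85.4% and 35.9%, or 72.5% and 23.7% after thinning. *Krt19* was found in 43.6% of cells at E9.5 and 9.46% at E12.0, or 20.0% and 6.12% after thinning. *Krt5* went from 0.457% to 71.7% and *Krt15* from 4.82% to 57.6% without thinning. The E9.5 shares cover all epithelial cells, including those with mesenchymal UMIs described below.

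The unsorted E9.5 library allowed these values to be set beside mesenchymal cells. Whether the keratin UMIs counted in such cells were their own was not tested. In 5375 E9.5 cells with mesenchymal marker UMIs (*Prrx1*, *Twist1* or *Pdgfra*) and no *Epcam* UMI, *Krt8* had 30.6 CPM and a UMI in 23.2% of cells, at a median of 15674 UMIs per cell. *Krt18* had 39.5 CPM and a UMI in 26.6% of these cells. *Krt19* had 3.25 CPM (4.35% of cells) and *Krt14* 0.633 CPM (0.949%). The simple keratins in E9.5 epithelial cells thus lay well above this level, and so did *Krt14*. There were 1.59 *Krt18* UMIs per *Krt8* UMI in epithelial cells, 1.29 in the mesenchymal cells and 1.31 in 161 cells with endothelial marker UMIs. The E12.0 library held no such mesenchymal cells, so it gives no comparison of this kind.

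Many Epcam-positive E9.5 cells carried mesenchymal UMIs as well. The 6 mesenchymal markers summed to 362 CPM in them, all 6 above 5 CPM, against 7.65 CPM at E12.0. In the 2331 E9.5 epithelial cells without a *Prrx1*, *Twist1* or *Pdgfra* UMI, these keratins had higher levels: *Krt18* had 737 CPM, *Krt8* 453 CPM, *Krt19* 82.4 CPM, *Krt14* 15.9 CPM and *Krt15* 5.62 CPM. Against these cells the 3 simple keratins were 9.66-, 8.61- and 4.91-fold lower at E12.0 (*Krt18*, *Krt8* and *Krt19*). *Krt14* was 41.6-fold and *Krt15* 55.1-fold higher at E12.0. The split into 4 higher and 3 lower members was thus found with and without these cells. Blood transcripts, led by the embryonic globin *Hbb-y*, also differed, with 5 markers summing to 797 CPM at E9.5 and 0.853 CPM at E12.0. In the 2331 E9.5 cells without mesenchymal UMIs these markers were higher, at 1152 CPM. Those cells were also shallower, with a median of 11250 UMIs against 13471.5 in all E9.5 epithelial cells. The part of blood transcripts in the keratin values was not tested.

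At E12.0, 1819 kept cells had no *Epcam* UMI. They held 611 CPM of *Krt5* and 789 CPM of *Krt14*, and 20.2 CPM of *Krt8* against 52.6 CPM in the Epcam-positive cells. The cells left out by the *Epcam* rule were thus keratin-positive, with less *Krt8*.

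Within single cells, simple keratins prevailed throughout at E9.5, and the balance was graded at E12.0. The simple share is the part of *Krt8*, *Krt18* and *Krt19* in the UMIs of these 3 genes and *Krt5*, *Krt14* and *Krt15*. It was 98.3% (exact binomial interval 98.2-98.4) at E9.5 and 9.09% (8.92-9.26) at E12.0. Of the E9.5 epithelial cells, 2717 had at least 10 UMIs of the 6 genes, and in all 2717 the simple keratins held more than 50% of them. The lowest share in any of these cells was 69.2%, and 74.8% of them had simple keratins alone. At E12.0, 60 of 5055 such cells (1.19%) were above 50%, and 49.3% had no simple keratin UMI.

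Joint detection in thinned cells gave the same picture for all cells, not only those rich in keratin. At E9.5, 73.9% of 4606 cells had simple keratins only, 6.47% had both kinds, 0.152% had basal keratins only and 19.5% had neither. In the 2158 of them without a *Prrx1*, *Twist1* or *Pdgfra* UMI, 88.0% had simple keratins only and 4.22% neither. In the 1423 with at least 2 such UMIs, 44.7% had simple keratins only and 51.8% neither. The part of mesenchymal transcripts in the 19.5% was not tested. At E12.0, 3.47% of 8974 cells had simple keratins only, 32.7% both, 61.1% basal keratins only and 2.76% neither. Since most E12.0 cells held basal keratins, simple keratins lay mostly beside them whether or not these kinds are linked.

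**Figure D2:**
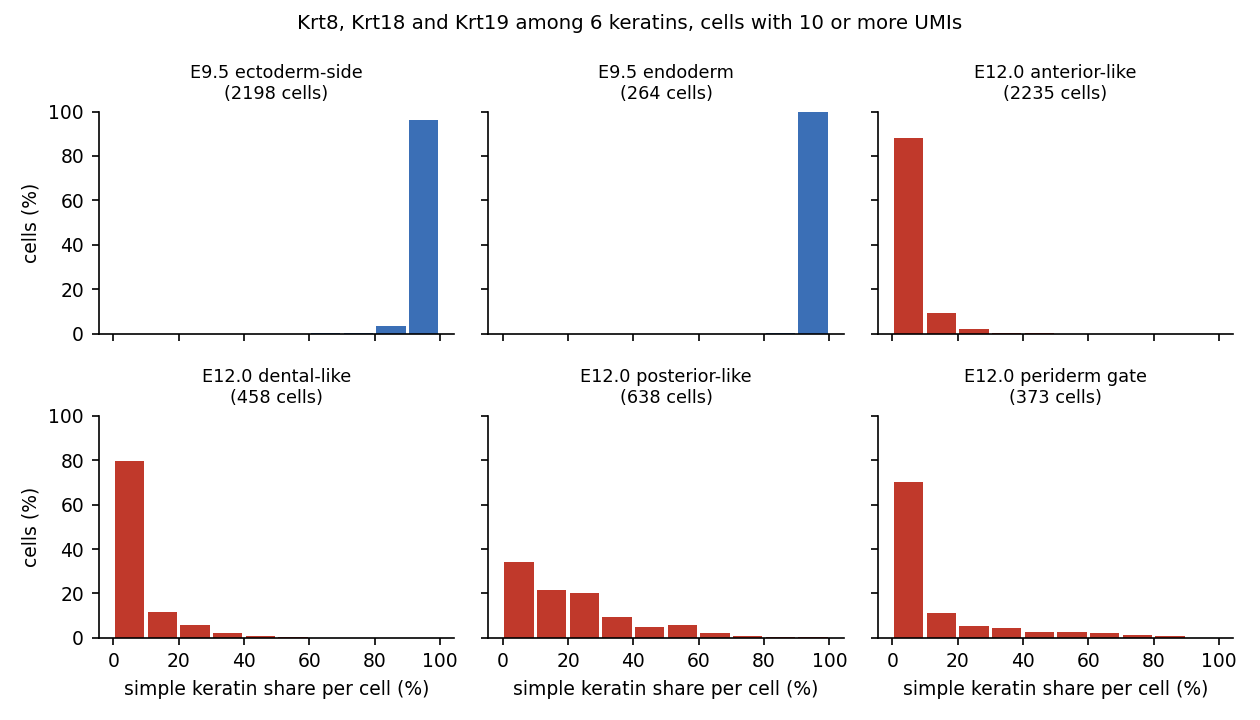
Share of Krt8, Krt18 and Krt19 among the UMIs of 6 keratins (horizontal axis, percent) in cells with at least 10 of these UMIs, as a percentage of the cells of each group (vertical axis): E9.5 ectoderm-side and endoderm cells, 3 E12.0 zones and the E12.0 periderm gate. All E9.5 cells lie above 50%, anterior-like and dental-like cells mostly near 0%, and posterior-like cells spread further to the right, with a median of 16.7%.

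The E9.5 cells with *Krt14* UMIs still held simple keratins. Among 4157 ectoderm-side cells, that is Epcam-positive cells without a UMI of the endoderm genes *Foxa2*, *Foxa1* and *Pax1*, 573 had a *Krt14* UMI. In those, *Krt8* had 443 CPM and *Krt18* 709 CPM, against 297 and 459 CPM in the 3584 cells without one. Among cells without mesenchymal UMIs (303 against 1659), these ratios were 1.17 (1.11-1.23) for *Krt8* and 1.16 (1.12-1.21) for *Krt18*. In the same cells, *Krt15* was 1.71-fold (1.10-2.58) and *Krt19* 1.43-fold (1.28-1.60) as high where *Krt14* was counted. Of the 573 cells, 484 had at least 10 keratin UMIs, and their median simple share was 93.8%. This comparison was chosen after the values had been seen.

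*Sfn* encodes the stratifin protein of differentiating epidermis. Ectoderm-side E9.5 cells with at least 2 *Sfn* UMIs (303 cells) were set against the other 3854. Such a gate is a range and not a cell type: 213 of the 303 cells had exactly 2 *Sfn* UMIs, and 700 of the others had 1. Of 5 members compared, 3 were at least 2-fold higher in the *Sfn* cells and 0 lower. Over 9779 genes, 1.01% were at least 2-fold higher and 1.44% lower, and the median log2 ratio was 0.04, against 1.15 for the 5 members. *Krt14* had 31.3 CPM (26.3-37.0) against 10.6 CPM (9.77-11.5), a ratio of 2.95 (2.43-3.56). *Krt15* had 7.77 CPM (5.38-10.9) against 3.49 CPM (3.01-4.04). *Krt19* had 109 CPM (99.9-119.7) against 48.5 CPM (46.7-50.4), a ratio of 2.26 (2.04-2.49).

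*Krt8* and *Krt18* differed less in the *Sfn* cells. *Krt8* was 1.56-fold (1.49-1.63) and *Krt18* 1.54-fold (1.49-1.60) as high, and *Krt5* had 2 UMIs in the 303 cells. *Krt17*, under 5 CPM in both groups and so not among the 5 compared, had 16 UMIs and 3.66 CPM (2.09-5.94) against 53 UMIs and 1.01 CPM (0.754-1.32), a ratio of 3.64 (1.94-6.46). The mesenchymal markers moved with this comparison, at 104 CPM in the *Sfn* cells and 423 CPM in the others, as did the blood markers, at 142 and 832 CPM. Among cells without mesenchymal UMIs (170 against 1792), 0 members reached 2-fold. There *Krt14* was 1.96-fold (1.48-2.55), *Krt19* 1.60-fold (1.40-1.82) and *Krt15* 1.32-fold (0.73-2.25) as high, the last with an interval that includes equal levels. The *Krt17* ratio there was 1.63 (0.557-3.95), which includes equal levels too.

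E9.5 endoderm cells, with at least 2 UMIs of *Foxa2*, *Foxa1* and *Pax1* together, numbered 334, and 118 of them had exactly 2. They had the simple keratins of the ectoderm side and less *Krt14*. Of 4 members compared, 0 were at least 2-fold higher and 1, *Krt14*, was lower. Over 9863 genes, 2.76% were higher and 1.98% lower. The median log2 ratio was 0.02 over all genes and 0.62 over the 4 members. *Krt14* had 3.87 CPM (2.33-6.04) from 19 UMIs in 15 cells against 12.2 CPM (11.3-13.2), 3.16-fold lower (2.01-5.28). *Krt18* had 812 CPM (787-837) against 495 CPM (489-501), and all 334 endoderm cells held a *Krt18* UMI. *Krt8* had 458 CPM against 318 CPM and *Krt19* 96.9 CPM against 53.2 CPM.

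Mesenchymal marker UMIs moved with this comparison too, at 85.7 CPM in endoderm and 399 CPM in the ectoderm-side cells, as did blood markers, at 144 and 779 CPM. Without cells carrying mesenchymal UMIs (176 against 1962), the *Krt18* ratio was 1.10 (1.05-1.16), the *Krt8* ratio 1.07 (1.01-1.14) and the *Krt19* ratio 1.25 (1.09-1.43). *Krt14* was 3.35-fold lower (1.89-6.54) there. In endoderm, 1 of 334 cells held a *Krt17* UMI and 2 held a *Krt5* UMI.

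**Figure D3:**
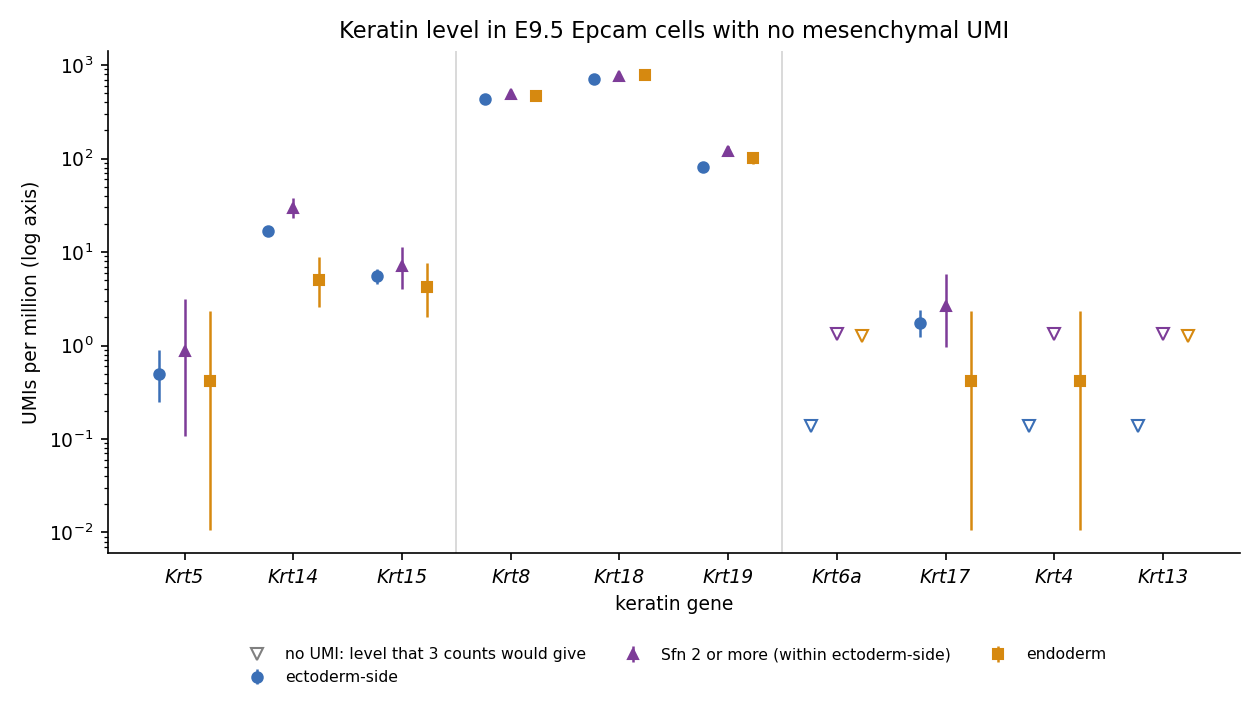
Level of each keratin (CPM, log axis) in E9.5 Epcam-positive cells without mesenchymal UMIs: 1962 ectoderm-side cells, the 170 of them with at least 2 Sfn UMIs, and 176 endoderm cells, with exact 95% Poisson intervals. Krt14 lies at 16.8, 29.9 and 5.02 CPM in that order, whereas Krt8 and Krt18 differ little between the groups.

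Periderm is the flat outer layer of embryonic epithelium. At E12.0 it was gated by at least 3 UMIs of *Ppl*, *Pkp1*, *Grhl3* and *Nebl* together. Such genes are also active in suprabasal cells, so the gate and the periderm-like cluster can hold both, and they were not told apart here. The gate held 459 of the 9536 epithelial cells, 116 of them with exactly 3 such UMIs, and 310 cells just below it had exactly 2. Of 8 members compared, 4 were at least 2-fold higher in the gate (*Krt8*, *Krt19*, *Krt6a* and *Krt17*) and 0 lower. Over 10423 genes, 4.49% were higher and 1.6% lower. The median log2 ratio was -0.02 over all genes and 1.09 over the 8 members.

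*Krt6a* showed the largest difference. It had 43.9 CPM (37.2-51.4) in the gate and 1.04 CPM (0.805-1.32) outside it, a ratio of 42.2 (31.5-57.1). It was nevertheless found in 14.8% of the gated cells, against 0.496% of the others. *Krt17* had 140 CPM (127-153) against 24.4 CPM (23.2-25.7), a ratio of 5.71 (5.15-6.33), and was found in 29.2% against 11.6% of cells. Both keratins were therefore counted in a minority of the gated cells. *Krt19* had 43.3 CPM (36.7-50.8) against 15.4 CPM (14.4-16.4), and *Krt8* had 118 CPM (107-130) against 49.0 CPM (47.4-50.8).

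The basal pair was not replaced in the periderm gate. *Krt14* had 1195 CPM against 635 CPM and *Krt5* 872 CPM against 463 CPM, each 1.88-fold as high. *Krt15* had 254 CPM (237-271) against 312 CPM (308-317), a ratio of 0.814 (0.760-0.870). In thinned cells, 45.5% of the gated cells held both simple and basal keratins, against 32.1% of the others. Doublet calls by Scrublet, which scores cells against simulated cell pairs, covered 13.3% of the gated cells and 6.22% of the others. Without them *Krt6a* had 51.2 CPM against 0.973 CPM and *Krt17* 163 CPM against 24.0 CPM, and the same 4 members were higher. With at most 5% mitochondrial UMIs, which left 148 gated cells, the log2 ratio was 0.61 for *Krt8*, under 2-fold, and 1.31 for *Krt5*, over 2-fold. With a gate of 2 UMIs the log2 ratio of *Krt15* was 0.11, the opposite direction. At E9.5 the same gate held 38 cells, with 992 CPM of *Krt8*, 1105 CPM of *Krt18*, 14.96 CPM of *Krt14* and no *Krt6a* or *Krt5* UMI.

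*Krt17* was uneven inside the E12.0 gate. The 85 gated cells with at least 2 UMIs of the contractile genes *Tagln* and *Acta2* had 316 CPM of *Krt17* and 106 CPM of *Krt15*, and the 330 without such UMIs had 93.9 and 317 CPM. *Krt6a* had 31.5 CPM in the former and 48.0 CPM in the latter, a ratio of 0.655 (0.403-1.02) whose interval includes equal levels. This split was chosen after the values had been seen.

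To compare regions of the E12.0 epithelium, all 11355 kept cells were clustered with the keratins and the region markers left out of the variable genes. This gave 17 clusters. The anterior-like zone (3555 cells) joined clusters with raised anterior or ventral markers, the dental-like zone (1134 cells) those with dental or initiation knot markers, and the posterior-like zone (2619 cells) those with posterior, salivary gland or tongue markers. A periderm-like cluster held 449 cells, and 3598 cells were in clusters left unnamed. The zones include cells without an *Epcam* UMI. The names rest on listed markers and on rebuilt clusters, so they need not match the study's own classes cell by cell. A zone also need not hold every cell of its region.

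Every member with at least 5 CPM in a zone differed at least 2-fold between the highest and the lowest of the 3 zones, 7 of 7. Over 10525 genes, 14.6% did so. The median log2 ratio of highest to lowest was 0.31 over all genes and 3.41 over the 7 members.

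The basal keratins did not share a zone order. *Krt5* had 674 CPM (664-684) in the anterior-like zone, 197 CPM (187-206) in the dental-like and 115 CPM (110-120) in the posterior-like zone, a ratio of 5.87 (5.61-6.15) between the ends. *Krt14* had 945 CPM (924-966) in the dental-like, 788 CPM (777-800) in the anterior-like and 248 CPM (240-255) in the posterior-like zone. *Krt15* had 428 CPM (418-438) in the posterior-like, 279 CPM (272-286) in the anterior-like and 26.3 CPM (23.0-30.0) in the dental-like zone, a ratio of 16.2 (14.2-18.6). The dental-like cells were thus rich in *Krt14* and poor in *Krt15*. Their clusters of 593, 377 and 164 cells had 829, 961 and 1314 CPM of *Krt14*. Each lay above the 788 CPM of the pooled anterior-like zone. An anterior-like cluster of 1325 cells had 920 CPM, however, more than the largest dental-like cluster. The *Krt14* order of these zones thus did not hold for every pair of clusters. The dental-like cells had 4.81 *Krt14* UMIs for each *Krt5* UMI, against 1.17 in the anterior-like and 2.16 in the posterior-like zone. This ratio varied by cluster, at 8.04, 3.93 and 3.09 in the dental-like clusters of 593, 377 and 164 cells. It was 6.22 in the posterior-like cluster of 1269 cells, so a high ratio was not particular to dental-like cells. Posterior-like cells held less *Krt14* than the other zones in each of their clusters, at most 535 CPM. Their pooled *Krt5* joined unlike clusters, with 42.8 and 57.2 CPM in those of 1269 and 419 cells. The clusters of 352, 260 and 319 cells had 324, 247 and 211 CPM, each above the 197 CPM of the dental-like zone. The place of *Krt5* below the dental-like zone thus rests on the clusters of 1269 and 419 cells. The cluster of 352 cells, which also had the 535 CPM of *Krt14*, had 5 of 10 posterior markers raised. Its leading genes included the cell cycle genes *Ccnb2* and *Cenpa*, as did those of an anterior-like cluster of 685 cells. The *Krt15* level of posterior-like cells pooled unlike clusters too. A salivary gland-like cluster (319 cells) had 1692 CPM and the tongue-like cluster (260 cells) 727 CPM. The other 3 clusters, with 1269, 419 and 352 cells, had 209.8, 267 and 160.0 CPM, each below the 279 CPM of the anterior-like zone. The place of *Krt15* above the anterior-like zone thus rests on 2 of the 5 clusters.

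Among the 3 zones, the simple keratins were highest in the posterior-like zone. *Krt8* had 134 CPM (128-139) there, 30.5 CPM (26.9-34.4) in the dental-like and 5.91 CPM (4.99-6.97) in the anterior-like zone, a ratio of 22.6 (19.1-26.9). Its partner *Krt18* varied far less, with 121, 60.7 and 41.9 CPM in that order, a ratio of 2.89 (2.68-3.11). In the anterior-like zone there were 7.08 *Krt18* UMIs for each *Krt8* UMI, and in the posterior-like zone 0.905. *Krt19* had the zone order of *Krt15* and not that of *Krt8*, at 21.7 CPM in the posterior-like, 14.6 CPM in the anterior-like and 1.18 CPM (0.567-2.17, from 10 UMIs) in the dental-like zone. The same 2 clusters had the most *Krt19* in the posterior-like zone, 47.8 and 37.7 CPM, and the other 3 had 12.2 to 21.2 CPM. That range overlapped the 11.7 to 21.6 CPM of *Krt19* in the anterior-like clusters. *Krt17* had 107 CPM (100.4-114.5) in the dental-like zone, and its 10.3 and 10.1 CPM in the anterior-like and posterior-like zones could not be told apart, with a ratio of 1.02 (0.838-1.24). *Krt6a* had 26, 3 and 0 UMIs in the posterior-like, anterior-like and dental-like zones.

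The ratio of type I to type II UMIs among the 10 members differed with these orders. It was 1.67 in the anterior-like, 3.31 in the posterior-like and 5.02 in the dental-like zone. In thinned cells, simple and basal keratins were found together in 48.5% of posterior-like, 27.0% of dental-like and 20.8% of anterior-like cells. Simple keratins alone were found in 12.0% of posterior-like, 1.37% of dental-like and 0% of anterior-like cells. Of the 60 E12.0 cells with at least 10 of these UMIs and a simple share above 50%, 38 were posterior-like, 1 was dental-like and 0 were anterior-like. The other 21 were in the periderm-like cluster, where they made up 5.82% of 361 such cells, against 5.96% of 638 in the posterior-like zone. The 361 cells were 80.4% of that cluster and the 638 were 24.4% of that zone. These percentages thus cover unlike parts of their groups. The median simple share of cells with at least 10 keratin UMIs was 16.7% in the posterior-like zone and 0% in both other zones. From the summed UMIs of all cells, the simple share was 25.9% in the posterior-like, 7.33% in the dental-like and 3.46% in the anterior-like zone. In the periderm-like cluster it was 11.2%.

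**Figure D4:**
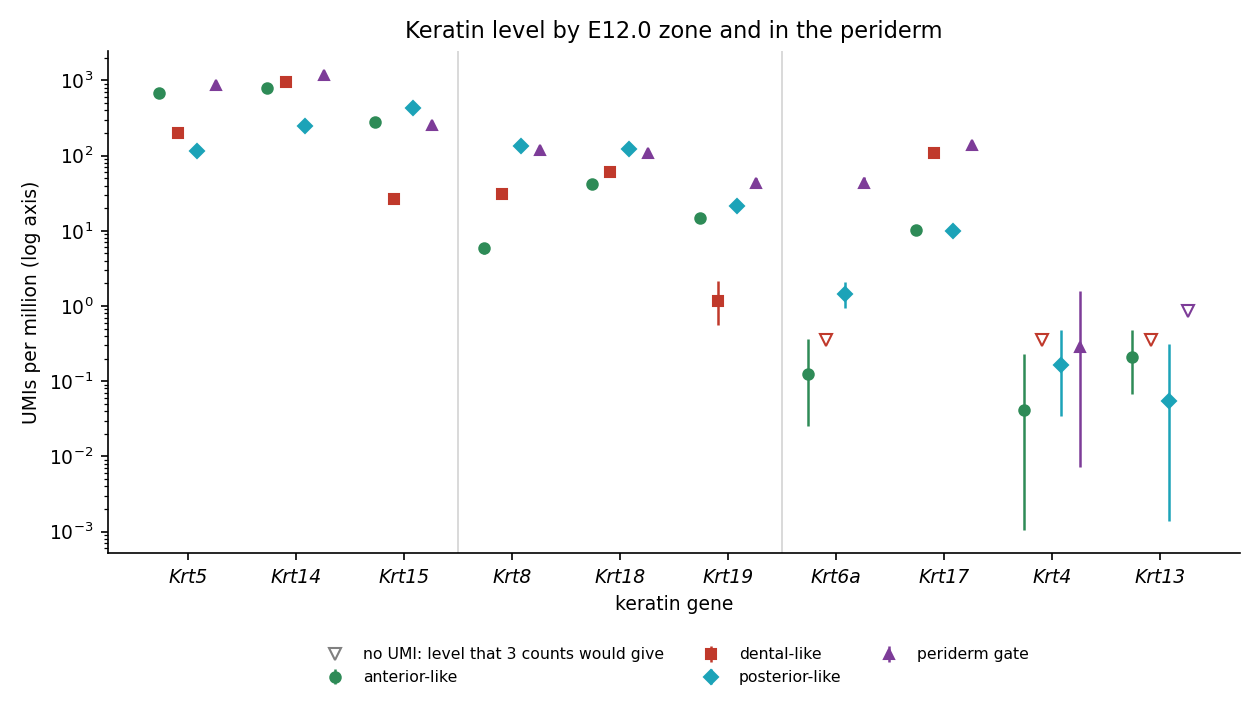
Level of each keratin (CPM, log axis) in the anterior-like, dental-like and posterior-like zones and in the periderm gate of E12.0, with exact 95% Poisson intervals; open triangles mark the level of 3 counts where no UMI was found. Krt15 and Krt19 are lowest in the dental-like zone (26.3 and 1.18 CPM), Krt8 in the anterior-like zone (5.91 CPM), and Krt6a is above 10 CPM in the periderm gate alone.

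Single clusters carried much of this variation. The initiation knot-like cluster (164 cells, with raised Shh and other knot markers) had 267 CPM of *Krt17* (240-297), 1314 CPM of *Krt14*, 4.62 CPM of *Krt8* and 0.770 CPM of *Krt19*. Its *Krt14* level lay next to that of the periderm-like cluster, 1341 CPM, and their intervals overlapped. A salivary gland-like cluster (319 cells), which *Pax9* leads and in which 5 of 7 salivary gland markers were raised, had 1692 CPM of *Krt15* and 47.8 CPM of *Krt19*, the highest of the 17 clusters for both. The other salivary gland-like cluster (419 cells, all 7 markers raised) had the lowest *Krt14*, 94.3 CPM, and a simple share of 36.6%. A posterior-like cluster of 1269 cells had the highest *Krt8*, 149 CPM, and the lowest *Krt5*, 42.8 CPM.

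From the lowest to the highest cluster, *Krt15* ranged 102-fold, *Krt19* 62.2-fold, *Krt17* 51.9-fold, *Krt8* 36.1-fold, *Krt5* 25.6-fold, *Krt14* 14.2-fold and *Krt18* 7.98-fold. Ordered by level, neighbouring clusters overlapped in their 95% intervals for 5 of 16 pairs of *Krt5*, 7 of *Krt14*, 8 of *Krt15*, 11 of *Krt17*, 13 of *Krt8*, 14 of *Krt18* and 15 of *Krt19*. By counting error alone, single clusters were thus better separated for the basal keratins, which also had more UMIs than the simple keratins. Variation between embryos was not measured. An unnamed cluster of 84 cells had the highest *Krt5*, 1098 CPM (987-1219), at a median of 3695.5 UMIs per cell. All 5 of 5 ventral markers were raised in it, but it was left unnamed because its 10 leading genes held a dental marker (Irx2) and no ventral one. Another unnamed cluster of 268 cells consisted of doublet calls to 88.1%, and one of 273 cells had a median of 980.0 UMIs. The largest unnamed clusters, of 1582 and 1391 cells, had medians of 6380 and 6057 UMIs and 3.86% and 4.96% doublet calls. No class had enough raised markers to name them, so they lie outside the zones. The 10 leading genes of the 1391-cell cluster held *Slc4a4*, which the paper maps to medial epithelium anterior to the incisor. Those of the 1582-cell cluster held *Timp3*, a diastema marker there, and *Gria2*, a ventral marker there, led the 84-cell cluster. The zones thus may leave out cells of their regions. The clusters of 1582 and 1391 cells had 755 and 641 CPM of *Krt5*, 697 and 760 CPM of *Krt14* and 366 and 299 CPM of *Krt15*. *Krt8* had 17.7 and 10.4 CPM there, and *Krt19* 22.6 and 9.60 CPM.

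**Figure D5:**
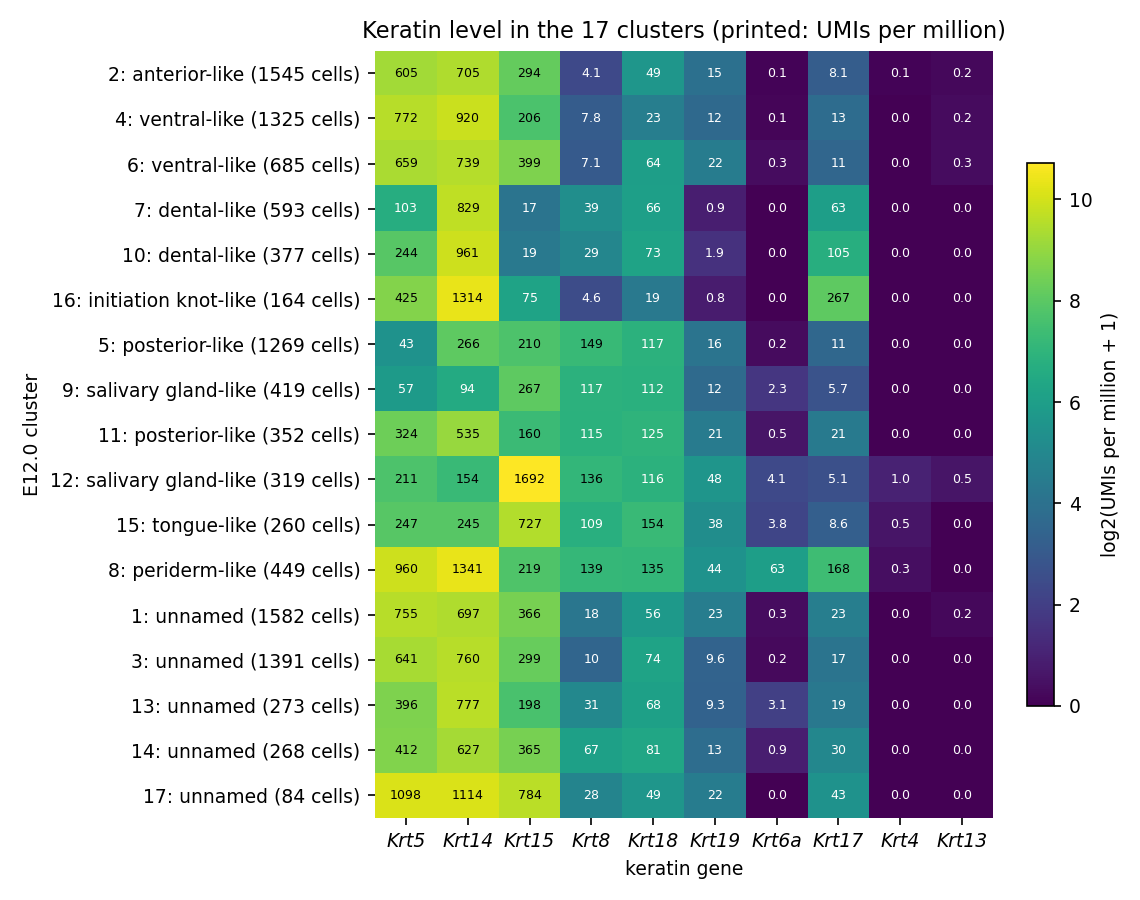
Level of each keratin in the 17 clusters of E12.0 cells (rows are clusters, columns are genes; colour is log2 of CPM plus 1, and the printed values are CPM). Krt15 peaks in a salivary gland-like cluster (1692 CPM), Krt17 in the initiation knot-like cluster (267 CPM) and Krt6a in the periderm-like cluster (63.4 CPM).

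Over the 17 clusters, Pearson correlations of log2(CPM + 1) described which members shared a pattern. The points come from 1 library and share its depth and dissociation, so no test applies. Each cluster counted the same, also the one with 88.1% doublet calls and the one with a median of 980.0 UMIs. *Krt15* and *Krt19* had r = 0.85, as had *Krt8* and *Krt18*. *Krt14* and *Krt17* had 0.73 and *Krt5* and *Krt14* 0.70. *Krt5* against *Krt8* gave -0.54 and *Krt14* against *Krt8* -0.58.

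By the same measure over 8593 genes with at least 20 CPM in a cluster, keratins left out and *Krt18* not searched, the genes most like *Krt5* were *Tmcc3* (0.88), *Fzd3* (0.86) and *Kidins220* (0.84). Those most like *Krt14* were *Basp1* (0.89), *Ablim1* (0.88) and *Rragd* (0.87). *Krt15* was closest to *Zfp467* (0.91), *Nr3c1* (0.90) and *Dlk2* (0.89), and *Krt19* to *Palm3* (0.85), *Nr3c1* (0.85) and *Erbb2* (0.84). For *Krt8* they were *Gm266* (0.91), *Gm12446* (0.90) and *Crabp2* (0.88). *Krt17* was closest to *Dusp8* (0.92), *Frem1* (0.92) and *Samd4* (0.89), and *Krt6a* to *Aqp3* (0.89), *Tnfaip2* (0.87) and *Senp1* (0.87). *Nr3c1*, the glucocorticoid receptor, was listed for both *Krt15* and *Krt19*, which is no separate result because these keratins had r = 0.85 with each other. All these values are the highest of 8593 over 17 clusters, so their size partly reflects that choice. *Krt6a* had 63.4 CPM in the periderm-like cluster and at most 4.12 CPM in any other, so its values rest largely on that cluster. *Krt4* and *Krt13* reached at most 1.03 and 0.514 CPM in any cluster, too low for a pattern to be read.

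E12.0 cells with *Krt8* differed in their other keratins. The 855 epithelial cells with at least 2 *Krt8* UMIs had 172 CPM of *Krt5* and 356 CPM of *Krt14*, against 563 and 741 CPM in the 7467 cells without one. *Krt18* was 2.59-fold (2.41-2.77), *Krt19* 2.59-fold (2.23-2.99) and *Krt15* 1.45-fold (1.40-1.51) as high in the *Krt8* cells. *Krt6a* was 10.5-fold as high (7.81-14.2). The *Krt8* cells had 13.1% doublet calls and a median of 7229 UMIs, against 5.45% and 6438 UMIs in the cells without one. *Krt8*, *Krt5* and *Krt14* also differed between the zones, and the part of the zone mix in these values was not tested. This comparison was chosen after the values had been seen.

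Of 40 other keratin genes listed at both stages, 9 had no UMI in epithelial cells and 5 reached 5 CPM in a stage or in the periderm gate. *Krt7*, a simple epithelial type II keratin, had 46.0 CPM at E9.5, 26.7 CPM at E12.0 and 39.8 CPM in the gate. *Krt10*, known from suprabasal epidermis, had 14.2, 25.9 and 33.0 CPM in that order, and its epidermal partner *Krt1* 1.82, 13.4 and 12.6 CPM. *Krt75*, of hair follicle companion cells, had 0.0151, 1.62 and 10.0 CPM, and *Krt79* 0.0602, 0.559 and 5.45 CPM. *Krt75* and *Krt79* reached 5 CPM in the periderm gate alone. They were named through that value, so their being highest there follows from the rule and is no separate result.

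A list was made of genes that anchor keratin filaments or act in keratinocyte regulation, with *Vim* added. It held 20 genes, 19 of them listed at both stages and all 19 compared. Of these, 17 were at least 2-fold higher at E12.0, 1 lower and 1 neither, with a median log2 ratio of 3.08. Over all 10517 genes, 21.8% were higher and 8.09% lower, with a median of 0.25. *Col17a1*, a hemidesmosomal collagen, had 0.0903 CPM at E9.5 and 102 CPM at E12.0. *Itgb4*, the integrin subunit that links keratins to the basement membrane, had 1.01 and 55.6 CPM. *Pkp1*, a desmosomal plaque protein, had 0.0753 and 14.9 CPM, and was part of the periderm gate. The regulators *Grhl3*, *Tfap2c* and *Ovol1* had 0.241 and 10.2 CPM, 3.96 and 66.9 CPM, and 0.662 and 7.84 CPM. *Pkp2*, a plaque protein of simple epithelia, was the lower one, with 33.5 and 9.98 CPM. *Vim*, which encodes vimentin, the intermediate filament of mesenchyme, had 109 and 127 CPM. The E9.5 values of these genes cover all epithelial cells, including those with mesenchymal UMIs. Among E9.5 ectoderm-side cells without mesenchymal UMIs, *Vim* had 71.3 CPM in cells with a *Krt14* UMI and 77.1 CPM in those without.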

How the data were processed

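The authors deposited UMI counts, whole numbers per gene and cell barcode without normalization, for 1 sorted E12.0 and 1 unsorted E9.5 library. The submitters' processing notes name Cell Ranger 2.0.0 and the genome mm10 (GRCm38). The file headers name other Cell Ranger versions, and the gene lists hold 27998 genes for E12.0 and 31053 for E9.5. The depth was 77936364 UMIs over the kept E12.0 cells and 166191431 over the kept cells of E9.5.

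Members, gene lists, gates and comparisons were chosen with earlier results of these data known. Groups were summed and divided by their total UMIs. Poisson, binomial and conditional ratio intervals were exact, at 95% (scipy 1.17.1 and numpy 2.4.6 in Python 3.11.15), and a count of 0 was set to 3 counts for a ratio. These steps were tested on simulated data. Named were all 10 members, other keratins with at least 5 CPM, up to 6 linked genes with the largest ratio between stages and the 3 genes most like each member other than *Krt18* over clusters. *Pkp2* and *Vim* fall outside this rule and were named after their values were seen.

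E12.0 cells were scaled to 10000 UMIs and log-transformed, cell cycle scores were regressed out, and Leiden clusters (leidenalg 0.10.2, resolution 1.0) were built on 3000 variable genes, 30 components and 20 neighbours in scanpy 1.11.5. A cluster was named from at least 3 raised markers, each at 1.5-fold or more and in at least 5% of its cells. The name was withheld where the 10 leading genes held more markers of another zone than of its own, or where depth was very low and they held none of its own. Alternatives changed the cell filters, the gates, the size criteria, the depth or weighting of cells, the sex of the cells and the clustering. Scrublet doublet calls, 331 at E9.5 and 661 at E12.0, were kept except in 1 alternative. Reads shared between keratin copies may be left uncounted.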

Additional observations from a re-analysis of the deposited data

How the results depend on the processing

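No alternative reversed a ratio that was counted as different by size. Of the recomputed counts and shares other than detection, 134 stayed near the first value and 13 moved. The shares of cells with a UMI were less stable, as 145 stayed and 95 moved. For the *Sfn* cells, the 3 members at least 2-fold higher became 1 with at least 2 *Epcam* UMIs, 5 with a fold of 1.5 and 0 without cells carrying mesenchymal UMIs. For endoderm, the 0 higher became 2 with a fold of 1.5, and the 1 lower became 0 with a gate of 1 UMI and 2 without the CPM minimum. The share of all genes under these settings is not given, so the changed counts show only how far the criteria matter. The E12.0 simple share of 9.09% was 10.1% with at least 2 *Epcam* UMIs, 8.43% without cells carrying endoderm markers and 13.0% with at most 5% mitochondrial UMIs, a limit that leaves 3254 of the 11355 kept E12.0 cells. The E9.5 share of 98.3% was 98.14% without endoderm markers, 98.46% in *Xist* cells, 98.21% in cells with Y-linked UMIs and 98.46% without the *Sfn* cells, and the causes were not tested. No paired analysis was possible because each stage had 1 library, and no library could be left out. Of the log2 ratios of members, 256 moved by less than the counting interval and 135 by more. *Krt5*, *Krt17* at E9.5 and *Krt6a* rest on few UMIs or few cells, and *Krt4* and *Krt13* are at the detection limit.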
